A study of Mus musculus with 2 samples.

Results

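The 33 genes described here encode the contractile and cytoskeletal machinery of smooth muscle, from actin, myosin and their regulators to the anchors that tie filaments to the cell membrane. They were taken by symbol from a table of 35529 genes, and all 33 were found. The study set untreated C57BL/6 wild-type mice, from which normal colon was taken, beside C57BL/6 wild-type mice that carried colon adenomas after AOM/DSS treatment. AOM is azoxymethane, which mutates colonic epithelium, and DSS is dextran sodium sulfate, which damages the gut lining and causes colitis. Total RNA of 6 individuals was pooled for each group and each pool was sequenced as 1 library (control pool, adenoma pool). Values are RPKM, reads scaled to gene length and to library size, so levels of different genes can be set side by side. Age, the doses and times of AOM and DSS, and whether the tissue taken included the muscle wall are not stated in the sources at hand.

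Smooth muscle contracts when calcium-bound calmodulin activates myosin light chain kinase, which phosphorylates the regulatory light chain so that myosin can pull on actin. A phosphatase reverses this step. The thin filaments end in dense bodies inside the cell and in dense plaques at the membrane, where vinculin and tensin join them to integrins, between stretches of membrane rich in caveolae. In the colon this machinery fills the muscularis propria and the muscularis mucosae and is also found in vessel walls, and part of it is made by myofibroblasts. Many of the genes are active in other cells too: Myl6, Flna, Actn1, Vcl, Tpm1, Cald1, Cav1 and Csrp1 are expressed well beyond muscle. In bulk tissue, fewer cells of a type and less RNA per cell cannot be told apart.

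With 1 library per group there was no replicate check and no test between conditions. The log2 difference is log2((adenoma RPKM + 1)/(control RPKM + 1)), a scale that understates the change of low genes, and 2-fold on it was the threshold for a call. Folds are ratios of RPKM, and the 95% intervals beside them are exact (Clopper-Pearson) binomial intervals from approximate reads. They cover counting error only, not differences between animals or library preparations. The library totals behind the RPKM were recovered as 29548883 reads (control) and 33174626 reads (adenoma). The RPKM of all genes summed to 629215 in control and 828667 in adenoma.

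Of the 33 genes, 31 had at least 1 RPKM in 1 pool or the other and entered the counts, and all 31 were above 1 RPKM in both. In the adenoma pool 11 were at least 2-fold lower: Cav1, Flna, Lmod1, Myh11, Mylk, Pgm5, Ppp1r12b, Smtn, Synm, Synpo2 and Tns1. None was at least 2-fold higher. Among all 16517 genes past the same filter, 1809 (11.0%) were at least 2-fold lower and 2316 (14.0%) at least 2-fold higher. The median log2 difference was -0.52 over the 31 genes and -0.02 over all genes. All 33 are mRNA genes. Among the 12910 mRNA genes past the filter, 13.1% were at least 2-fold lower and 10.4% higher, with a median of -0.17. After rescaling both pools to equal RPKM sums, the median of all genes moved to -0.37 and that of the 31 genes to -0.87. Of the 31, 13 were then at least 2-fold lower and none higher. The filter was applied anew to the rescaled values and 17519 genes passed it, with 3786 lower (21.6%) and 1414 higher (8.07%).

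By summed level, the 11 genes above 100 RPKM in either pool came to 4126 RPKM in control and 4186 RPKM in adenoma, although 7 of the 11 had lower values in the adenoma pool. That sum rests on Myl6, without which the other 10 came to 3521 and 3135 RPKM, and after rescaling to equal sums the adenoma sum of the 11 was 3178 RPKM. The remaining 22 summed to 541 and 344 RPKM, with 18 of them lower. All 33 together came to 4667 and 4530 RPKM, and the sign of that small difference turned under upper-quartile and trimmed-mean scaling and when Acta2 and Actg2 were left out. Over the 31 genes, control RPKM and the log2 difference had a Spearman correlation of 0.39, which was 0.09 with the trend over transcript length described further on subtracted, and longer genes had lower control RPKM (-0.52).

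**Figure D1:**
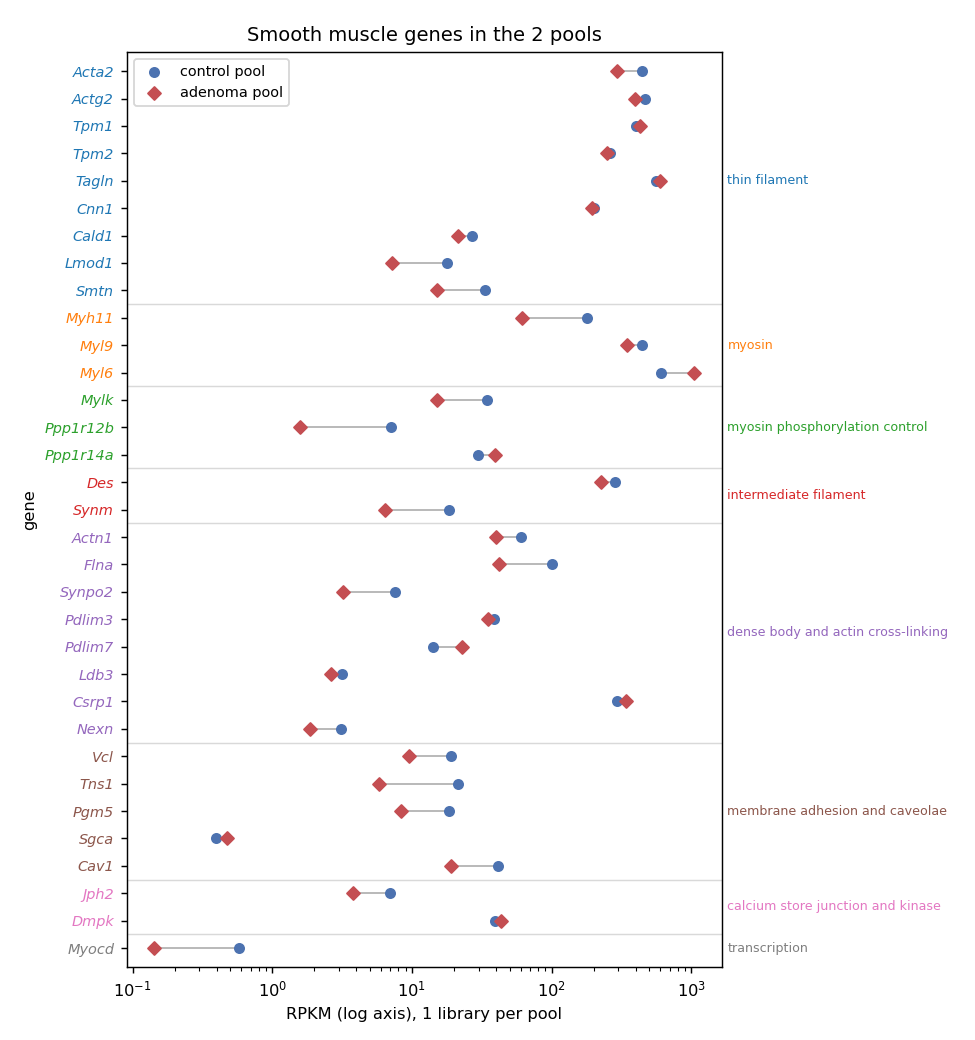
RPKM of the 33 smooth muscle genes on a log axis, with 1 point per pooled library and genes ordered by role. Myl6 has the highest adenoma value at 1051 RPKM, Ppp1r12b and Myocd show wide gaps between the pools, and Tagln, Tpm1, Tpm2 and Cnn1 have almost overlapping points.

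Serum response factor (SRF), with its cofactor myocardin, binds the CArG box (CCNNNNNNGG, where each N is A or T, the same on both strands) in many muscle genes. RefSeq windows of 250 bases before to 50 after the annotated start (GRCm38.p6) were given for 28 of the 33 genes. Actg2, Tagln, Myh11, Nexn and Myocd had no such window and were not searched. Such a box was found in the windows of 4 of the 28 (14.3%), Ldb3, Myl6, Myl9 and Vcl, and in those of 488 of all 27025 genes with a window (1.81%). Allowing 1 G or C among the inner letters, a variant chosen after the first count was seen, it was found for 8 of 28 (28.6%) and for 3050 of 27025 (11.3%). That variant added Acta2, Jph2, Pdlim3 and Synm. The 250 bases before the start are shown for 4 of these genes, chosen because their values differ in direction and size, with the boxes in capitals: Acta2 (chr19:34255374-34255623, minus strand), Myl9 (chr2:156775214-156775463, plus strand), Vcl (chr14:20929148-20929397, plus strand) and the start site of Myl6 that holds a box (chr10:128493010-128493259, minus strand). In Acta2 the capitals mark boxes with 1 G or C inside, in the others the box without one.
Acta2: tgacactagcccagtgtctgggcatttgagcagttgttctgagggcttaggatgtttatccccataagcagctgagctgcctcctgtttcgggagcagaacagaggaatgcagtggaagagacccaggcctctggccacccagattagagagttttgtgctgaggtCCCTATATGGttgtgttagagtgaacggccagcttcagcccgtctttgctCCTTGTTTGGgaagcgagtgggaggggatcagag
Myl9: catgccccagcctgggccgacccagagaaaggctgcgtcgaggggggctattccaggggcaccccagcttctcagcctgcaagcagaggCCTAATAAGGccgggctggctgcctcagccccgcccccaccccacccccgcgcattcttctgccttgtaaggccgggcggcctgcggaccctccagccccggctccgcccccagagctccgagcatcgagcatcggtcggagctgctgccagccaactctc
Vcl: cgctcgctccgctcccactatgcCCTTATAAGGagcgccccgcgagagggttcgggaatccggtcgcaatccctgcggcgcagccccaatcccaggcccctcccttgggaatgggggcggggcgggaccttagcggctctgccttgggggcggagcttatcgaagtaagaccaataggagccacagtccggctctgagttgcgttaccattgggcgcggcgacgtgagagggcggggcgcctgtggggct
Myl6: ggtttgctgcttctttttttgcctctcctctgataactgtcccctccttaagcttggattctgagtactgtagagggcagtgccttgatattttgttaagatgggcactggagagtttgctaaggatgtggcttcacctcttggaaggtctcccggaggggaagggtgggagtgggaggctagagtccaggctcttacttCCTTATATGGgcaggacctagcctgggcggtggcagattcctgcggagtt

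In Acta2 the boxes CCCTATATGG and CCTTGTTTGG began 84 and 34 bases before the RefSeq start. That start and the boxes lie inside the span of the gene given below, which is from GENCODE. The box of Myl9, CCTAATAAGG, began 161 bases before it, that of Vcl, CCTTATAAGG, 227 bases before it, and that of Myl6, CCTTATATGG, 50 bases before it. These 4 genes differ in direction because they were chosen so. Acta2, Myl9 and Vcl had lower values in the adenoma pool and Myl6 a higher one, as given below. The other genes with a box, Jph2, Ldb3, Pdlim3 and Synm, also had lower values there. So did 24 of the 31 genes above the filter used below, and a link between box and direction was not tested. A match is a stretch of letters and not a binding site, and a window without one says nothing about SRF.

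The smooth muscle actins were, after Tagln, among the most abundant thin filament genes. Where values come in pairs from here on, the control pool is first and the adenoma pool second. Acta2 (alpha smooth muscle actin, 19:34241090-34255590, minus strand) was at 440 RPKM (control) and 295 RPKM (adenoma), 1.49-fold lower (interval 1.46 to 1.52). Actg2 (gamma enteric actin, the actin of gut smooth muscle) was at 464 and 396 RPKM, 1.17-fold lower (1.15 to 1.20). Thus the RPKM ratio of Acta2 to Actg2 was 0.948 in control and 0.747 in adenoma. Reads of actin genes can be split among close copies by a counter, so these values are uncertain to that extent. The cytoplasmic actins Actb (617 and 668 RPKM) and Actg1 (362 and 447 RPKM) were higher in the adenoma pool by small amounts, a direction that turned for both after rescaling to equal sums.

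Among the proteins that lie along actin, the abundant ones had close values in the pools. Tagln (transgelin, an actin-bundling protein) was at 558 and 597 RPKM, Tpm1 (tropomyosin 1) at 400 and 430 RPKM, and both log2 differences, 0.10 and 0.11, became negative after rescaling to equal sums. Tpm2 was at 263 and 250 RPKM and Cnn1 (calponin 1, an inhibitor of the myosin ATPase) at 202 and 195 RPKM, with Cnn1 turning to the higher side under upper-quartile and trimmed-mean scaling. Cald1 (caldesmon, another brake on the actin-myosin interaction) was at 26.8 and 21.2 RPKM, 1.26-fold lower (1.20 to 1.33). The less abundant Lmod1 and Smtn had wider gaps. Lmod1 (leiomodin 1, which starts new actin filaments) was at 17.9 and 7.14 RPKM, 2.50-fold lower (2.32 to 2.71), and Smtn (smoothelin, a marker of contractile smooth muscle) at 33.2 and 15.0 RPKM, 2.21-fold lower (2.08 to 2.34). Of the 9 thin filament genes, those were the 2 called, beside 11.0% of all genes called lower. With the trend over transcript length subtracted, 1 of the 9 was called lower.

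The myosin subunits differed in the size and direction of their values. Myh11 (smooth muscle myosin heavy chain, 16:14194535-14291372, minus strand) was at 178 RPKM in control and 61.0 RPKM in adenoma tissue, 2.92-fold lower (2.86 to 2.98). Its regulatory light chain Myl9 was at 440 and 347 RPKM, 1.27-fold lower (1.24 to 1.30). Myl6, the essential light chain shared with non-muscle myosin, was at 606 and 1051 RPKM, 1.74-fold higher (1.70 to 1.77), and was the most abundant of the 33 genes in both pools. The heavy chain thus stood at 0.405 of the RPKM of Myl9 in control and 0.175 in adenoma. Non-muscle heavy chains were also lower: Myh9 was at 119 and 46.3 RPKM and Myh14 at 110 and 26.3 RPKM. The ratio of Myh11 to Myh9 was 1.49 and 1.32, and Myh9 was 2.58-fold lower (2.53 to 2.64), close to Myh11.

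Myosin phosphorylation is set by a kinase, a phosphatase and an inhibitor of that phosphatase (Mylk, Ppp1r12b and Ppp1r14a). Mylk (myosin light chain kinase) was at 34.5 and 15.0 RPKM, 2.30-fold lower (2.21 to 2.39). Ppp1r12b (a targeting subunit of myosin phosphatase, 1:134754658-134955942, minus strand) was at 7.07 and 1.59 RPKM, 4.46-fold lower (3.75 to 5.32), with about 655 reads in control and 165 in adenoma. That was the widest RPKM ratio of the 31 genes. Its relative Ppp1r12a was at 18.1 and 8.12 RPKM and Ppp1r12c at 21.0 and 20.5 RPKM. Ppp1r14a (CPI-17, which inhibits the phosphatase) was at 29.9 and 39.3 RPKM, 1.31-fold higher (1.20 to 1.44), a direction lost after rescaling to equal sums.

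The intermediate filament partners had unequal ratios. Des (desmin) was at 285 and 225 RPKM, 1.27-fold lower (1.25 to 1.29), and Synm (synemin, which joins desmin filaments) at 18.3 and 6.41 RPKM, 2.85-fold lower (2.69 to 3.02). Vim (vimentin, the filament of mesenchymal cells) was at 175 and 349 RPKM. The ratio of Des to Vim was therefore 1.63 in control and 0.643 in adenoma, which reverses their order.

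Of 8 genes of the dense bodies and actin cross-links, 2 were called lower and none higher, beside 11.0% and 14.0% of all genes. With the trend over transcript length subtracted, 0 of the 8 were called lower. Flna (filamin A, an actin cross-linker on chromosome X) was at 99.8 and 42.3 RPKM, 2.36-fold lower (2.31 to 2.41), and its relative Flnc at 11.6 and 4.52 RPKM was at least 2-fold lower as well. Synpo2 (synaptopodin 2, an actin-bundling protein) was at 7.62 and 3.19 RPKM, 2.39-fold lower (2.19 to 2.61). Actn1 (alpha-actinin 1, a dense body cross-linker) was at 60.5 and 40.2 RPKM, and Nexn (nexilin, an actin-binding protein) at 3.12 and 1.87 RPKM, 1.66-fold lower (1.36 to 2.05). The LIM domain adaptors included the higher values of this group. Pdlim7 was at 14.1 and 22.9 RPKM, 1.62-fold higher (1.48 to 1.78), and its relatives Pdlim2 (5.50 and 14.4 RPKM) and Pdlim4 (12.7 and 44.3 RPKM) were more than 2-fold higher. Csrp1 (a LIM protein of smooth muscle) was at 292 and 339 RPKM, a log2 difference of 0.22 that became negative after rescaling to equal sums. Pdlim3 was at 38.4 and 34.9 RPKM and Ldb3 at 3.17 and 2.63 RPKM, while Pdlim1 (119 and 68.6 RPKM) and Pdlim5 (12.3 and 7.05 RPKM) lay on the lower side, so the LIM family had members on both sides.

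Genes of membrane adhesion and caveolae were lower in the adenoma pool for 4 of the 4 past the filter, 3 of them called. Among all genes past the filter, 50.8% were lower and 11.0% were called lower. With the trend over transcript length subtracted, 2 of the 4 were called lower. Tns1 (tensin 1, which links actin to integrins, 1:73910231-74124449, minus strand) was at 21.4 and 5.83 RPKM, 3.66-fold lower (3.48 to 3.86). Pgm5 (aciculin, an adhesion protein without enzyme activity) was at 18.3 and 8.37 RPKM, 2.19-fold lower (2.02 to 2.37), and Cav1 (caveolin 1, the coat of caveolae, 6:17306335-17341452, plus strand) at 41.1 and 19.0 RPKM, 2.16-fold lower (2.04 to 2.29). Vcl (vinculin) lay just outside the threshold at 19.1 and 9.59 RPKM, 1.99-fold lower (1.87 to 2.11). Together the group went from 100 to 43.3 RPKM. Partners of caveolin 1 were not equally lower: Sdpr (cavin 2) was at 14.5 and 5.83 RPKM, Ptrf (cavin 1) at 27.0 and 19.1 RPKM and Cav2 at 5.39 and 5.88 RPKM. Other tensins were Tns3 at 18.9 and 11.8 RPKM and Tenc1 (tensin 2) at 8.47 and 2.07 RPKM.

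Of the 2 genes left among those past the filter, Jph2 (junctophilin 2, which holds the calcium store close to the membrane) was at 6.99 and 3.79 RPKM, 1.84-fold lower (1.65 to 2.06). Dmpk (a kinase of muscle) was at 39.0 and 43.1 RPKM, a log2 difference of 0.14 that became negative after rescaling to equal sums. The genes under 1 RPKM in both pools were Sgca and Myocd. Sgca (alpha-sarcoglycan, a muscle membrane protein) was at 0.393 and 0.473 RPKM, about 20 and 27 reads, and its ratio had an interval of 0.651 to 2.27, so no difference was detectable at this depth. Myocd (myocardin, the SRF cofactor of smooth muscle) was at 0.575 and 0.142 RPKM, about 87 and 24 reads, 4.06-fold lower (2.56 to 6.67) by counting error alone.

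Transcript length moved with the difference between the pools, in this set and in all genes. Over the 31 genes the Spearman correlation of transcript length with the log2 difference was -0.76, and over 12722 mRNA genes it was -0.54, each across genes of the same 2 libraries. In 20 bins of length, the median log2 difference of mRNA genes was 0.90 in the shortest bin and -0.80 in the longest. All 6 genes with transcripts of at least 6195 bases (Myh11, Mylk, Synm, Flna, Synpo2 and Tns1) were called lower, where 32.7% of mRNA genes of that length were. None of the 10 genes shorter than 2140 bases was called lower, where 5.37% of such mRNA genes were, and of the 15 in between 5 were (Lmod1, Smtn, Ppp1r12b, Pgm5 and Cav1), beside 14.7% of mRNA genes. These length limits were set after the data were seen.

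**Figure D2:**
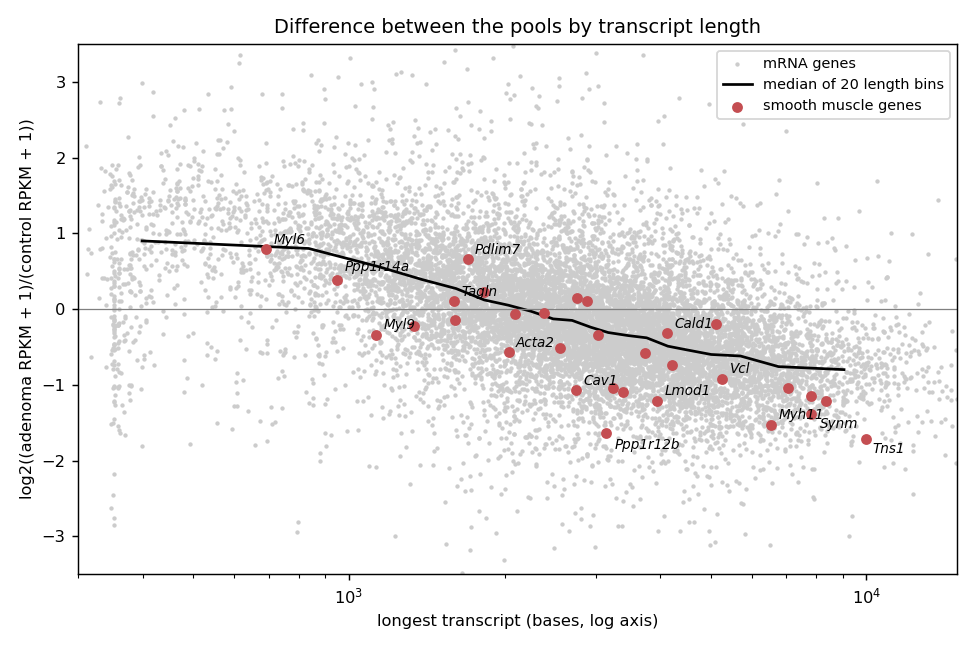
Log2 difference between the pools against the length of the longest RefSeq-matched transcript (log axis), for mRNA genes (grey), the median of 20 length bins (line) and the smooth muscle genes (red); genes beyond the axes are not drawn. The line runs from 0.90 to -0.80, Myl6 lies near it, and Ppp1r12b, Cav1, Myl9 and Tns1 lie below it.

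With the median of mRNA genes of like length subtracted and the overall mRNA median of -0.17 added back, the picture within the set changed. The median of the 31 genes was again -0.52, beside -0.19 over 15502 genes with a length. At least 2-fold lower were 5, Cav1, Lmod1, Myl9, Ppp1r12b and Tns1, beside 11.0% of genes, and 4 of these were among the 11 called as deposited. None was at least 2-fold higher, beside 5.03% of genes. Lower than 0 were 27 of 31, against 24 as deposited. The share of all genes below 0 also moved, from 50.8% of 16517 to 62.7% of the 15502 with a length. For mRNA genes, the type of every gene in the set, it was 58.1% of 12910 as deposited and 61.5% of 12722 adjusted. With GC content subtracted as well, Cav1 and Ppp1r12b were the 2 still called lower, beside 10.8% of genes, and none was called higher, beside 4.92%.

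Single genes moved in both directions under this adjustment. Myl9 went from -0.34 to -1.07 and Actg2 from -0.23 to -0.79, while Acta2 went from -0.57 to -0.80. Myh11 went the other way, from -1.53 to -0.94, as did Flna, from -1.22 to -0.59, and Mylk, from -1.15 to -0.52. The heavy and regulatory light chains of myosin, far apart as deposited, were thus at -0.94 and -1.07 on the adjusted scale. Myl6, highest as deposited at 0.79, was at -0.17, a sign that turned again when the longest transcript of any kind was used, and Ppp1r14a went from 0.38 to -0.59. Tagln (-0.35) and Csrp1 (-0.07) also became negative, Ldb3 became positive at 0.23, and Cald1 came to -0.00. Ppp1r12b (-1.50) and Cav1 (-1.10) changed little. The genes still above 0 were Ldb3, Pdlim7 (0.22), Tpm1 (0.18) and Dmpk (0.11). These signs depend on the length used: the Tpm1 values give whole reads at 6 times 1702 bases, within 5% of a shorter transcript, and not at the 2890 used. The median of mRNA genes is 0.27 at 1702 bases in place of -0.24, which would turn the sign of Tpm1. The smallest length that gave whole reads, or that length divided by up to 6, was within 5% of the one used for 12 of the 33 genes, Dmpk among them. A difference of up to 5% was counted as a match. For Ppp1r14a, Des, Pdlim7, Ldb3 and Sgca it matched no RefSeq-matched transcript, and for 15 none was found. Multiples of the smallest length were not tried, so a missing match does not show that another length was used.

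**Figure D3:**
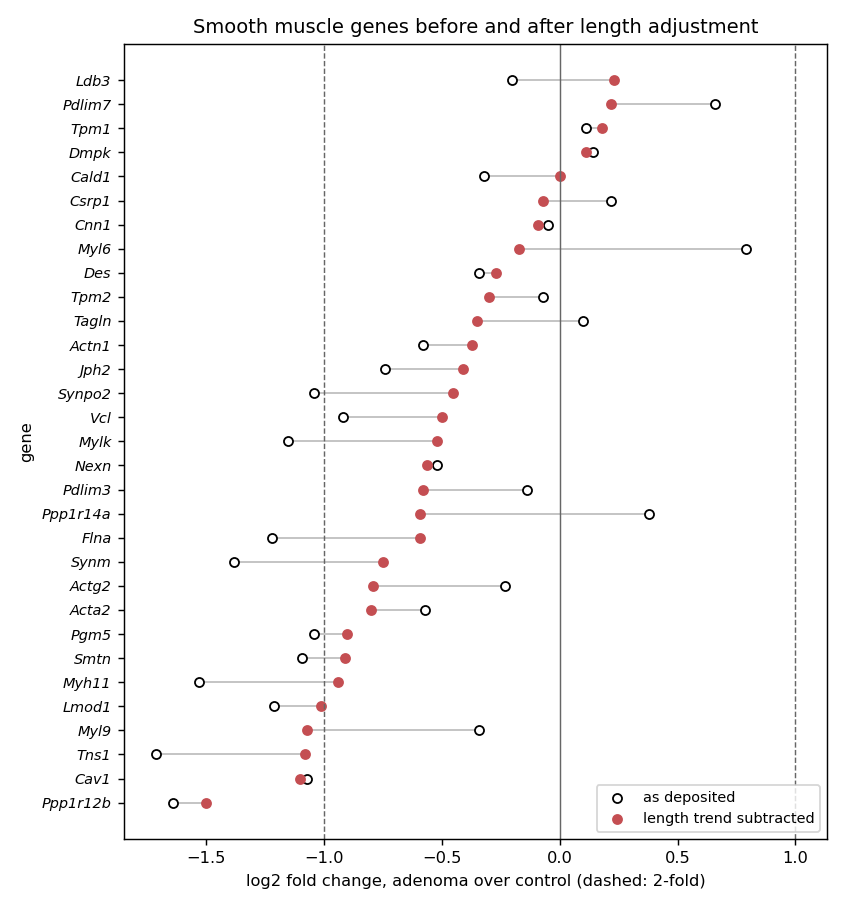
Log2 difference, adenoma over control, of the 31 genes past the filter, as deposited (open) and with the length trend subtracted (filled); dashed lines mark 2-fold. Ppp1r12b is lowest after adjustment at -1.50, and Myl9 (-1.07) and Myh11 (-0.94) come close to each other.

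Other genes of the same machinery and of its control were taken from lists, each described by its counts, as its genes were not tested. Over all genes past the filter, 11.0% were at least 2-fold lower and 14.0% higher as deposited. These shares were 11.0% and 5.03% adjusted for length, and 3.96% and 7.93% with a pseudocount of 5. For the scalings the filter was applied anew over all genes. The shares were then 21.6% and 8.07% of 17519 genes after rescaling to equal sums, and 9.86% and 15.1% of 16598 under upper-quartile scaling. The list counts keep the genes past the filter as deposited. Of 69 further contractile apparatus genes past the filter, 16 were at least 2-fold lower and 3 higher, with a median of -0.57 as deposited and -0.36 adjusted for length. The lower count was 11 adjusted for length and 32 after rescaling to equal sums. Receptors, channels and signalling genes of smooth muscle had 8 of 24 lower and none higher (median -0.68, adjusted -0.44), with 3 lower adjusted for length, 1 with a pseudocount of 5 and 13 after rescaling to equal sums. They included Atp2b4, a calcium pump of the plasma membrane (7.56 and 1.31 RPKM), Stim1, a calcium store sensor (46.1 and 12.0 RPKM), and Htr4, a serotonin receptor (3.91 and 0.473 RPKM). A list of SRF cofactors, transcription factors and hedgehog pathway genes had 8 of 19 lower and 1 higher (median -0.90, adjusted -0.58), with 5 lower adjusted for length and 2 with a pseudocount of 5. Of the 8, Hhip and Ptch1 encode membrane proteins that bind hedgehog, and without them 6 of 17 were lower. Srf itself was at 15.1 and 10.2 RPKM, its cofactors Mkl1 and Mkl2 at 7.48 and 2.93 RPKM and at 4.24 and 1.63 RPKM, and Klf4, a repressor of the contractile genes that is also abundant in colonic epithelium, at 133 and 32.2 RPKM. The non-muscle cytoskeleton had 5 of 25 lower and 3 higher, 3 lower and 5 higher under upper-quartile scaling, and 3 lower and 1 higher adjusted for length. Its median of 0.11 became -0.28 after rescaling to equal sums and -0.18 adjusted for length.

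**Figure D4:**
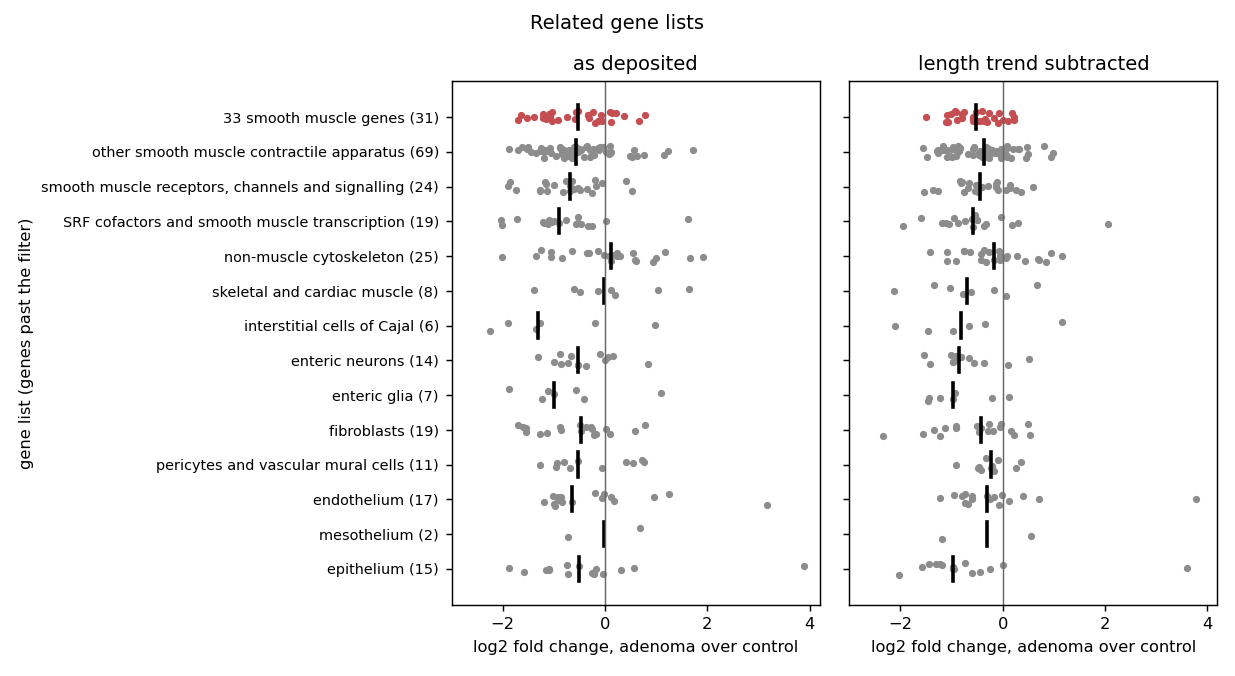
Log2 difference of each gene past the filter in the 33-gene set (red) and in 13 related or cell type lists (grey), as deposited (left) and with the length trend subtracted (right); bars are medians and the numbers in brackets are genes drawn. The set has medians of -0.52 and -0.52, the interstitial cell list -1.31 and -0.81, and the epithelial list -0.50 and -0.98.

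Markers of the other cells of the gut wall were measured beside the set, and their part in the results above was not tested. The shares of all genes to set beside their counts are 11.0% lower and 14.0% higher as deposited. Adjusted for length they are 11.0% and 5.03%, and after rescaling to equal sums 21.6% and 8.07% of the 17519 genes past the filter on that scale. Interstitial cells of Cajal, the pacemakers between the muscle layers, had 4 of 6 markers past the filter at least 2-fold lower, and 2 lower and 1 higher adjusted for length. The 8 markers measured summed to 232 and 58.5 RPKM, of which Thbs4 was 172 and 35.5 RPKM, and to 59.4 and 23.0 RPKM without it. Kit was at 6.99 and 1.15 RPKM, Ano1 at 46.8 and 17.8 RPKM, and Prkcq, on the other side, at 0.541 and 2.04 RPKM. Enteric glia had 4 of 7 lower and 1 higher, with sums of 54.7 and 21.1 RPKM. Enteric neurons had 1 of 14 lower as deposited, 3 adjusted for length and 6 after rescaling to equal sums, with sums of 85.6 and 65.8 RPKM. Snap25 was at 3.10 and 0.645 RPKM and Vip at 24.0 and 16.3 RPKM, but Tac1 was at 9.39 and 17.7 RPKM, and Ret (1.11 and 1.21 RPKM) and Uchl1 (7.46 and 6.96 RPKM) had close values. Fibroblast markers had 6 of 19 lower and none higher. They summed to 1381 and 892 RPKM, and to 884 and 721 RPKM without Gsn, which other cells make too (497 and 171 RPKM), while Dcn (145 and 250 RPKM) and Lum (17.5 and 26.7 RPKM) had higher values in the adenoma pool. Pericyte markers had 1 of 11 lower, 0 adjusted for length and 5 after rescaling to equal sums (55.7 and 45.8 RPKM). Endothelial markers had 2 of 17 lower and 2 higher, and 9 lower and 1 higher after rescaling to equal sums (200 and 180 RPKM). As deposited, the lower counts of enteric neurons, pericytes and endothelium were thus near the share over all genes. Prkcq, Tac1, Ret, Uchl1, Dcn and Lum were chosen after their values were seen. Epithelial markers, which make up far more of the RNA, had 5 of 15 lower and 1 higher, with sums of 13612 and 9799 RPKM. Mesothelial markers had 2 past the filter, neither called. Their sum of 3248 and 1953 RPKM was nearly all Krt19 (3245 and 1950 RPKM), which epithelium also makes, so it says little about mesothelium. Msln, the other gene past the filter, was higher in the adenoma pool (0.640 and 1.65 RPKM). The mesothelial marker Lrrn4 was listed at 0 in the adenoma pool.

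Skeletal and cardiac muscle markers were mostly below 1 RPKM in both pools, which bears on the smooth muscle label of the set. Of 30 such genes 8 passed the filter, and Myh1 (0.0122 and 0.00334 RPKM), Myh7 (0.0391 and 0.0299 RPKM) and Ttn (0.0120 and 0.00593 RPKM) were among those that did not. Mb (myoglobin) was listed at 0 in both pools, and Myl2, Myl3 and Tnnc2 in the control pool. Tnni1, the slow skeletal troponin I, was the most abundant of the 30 in both pools at 122 and 45.9 RPKM. Also past the filter were Ckm (8.33 and 7.47 RPKM), Tnnt2 (7.85 and 8.60 RPKM), Acta1 (4.89 and 3.23 RPKM) and Tnnt1 (2.39 and 1.23 RPKM). The others were Tnni2 (2.23 and 2.71 RPKM), Myl4 (1.49 and 4.10 RPKM) and Mylpf (0.986 and 5.19 RPKM). Ckm, Tnnt2 and Acta1 were above Ldb3 and Nexn of the set in both pools. Of the smooth muscle markers, Acta2, Actg2, Myh11, Tagln, Cnn1 and Des were at 178 RPKM or more in the control pool and well above 1 RPKM in both. Smtn (33.2 and 15.0 RPKM) and Lmod1 (17.9 and 7.14 RPKM) were less abundant. Myocd (0.575 and 0.142 RPKM), also a marker of smooth muscle, was below 1 RPKM in both pools.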

How the data were processed

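RNA was measured in 2 pooled libraries, 1 per group. The authors deposited 1 table of RPKM values per gene and pool, per the file headers. The labels name Proton in one place and Illumina in another, and the submitters' processing notes name GRCh37, a human build, for these mouse data. No source used here names the aligner, the counter or the annotation, so these are not given.

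From the deposited RPKM, log2((adenoma + 1)/(control + 1)) was computed where 1 or both pools reached 1 RPKM, with 2-fold as the threshold. There was no test, since each group is 1 library. Read totals were recovered from short genes whose RPKM times length steps by whole reads: 129 of 182 (70.9%) and 144 of 200 (72.0%) came within 0.01 of a whole number, so these are approximate. Reads per gene used the longest GENCODE M21 (GRCm38) transcript matched to RefSeq, or else the longest coding or other one, found for 93.9% of genes past the filter, a choice made after the data were seen. Among 9261 mRNA genes checked, 4411 had a length that gave whole reads in both pools and matched a transcript to within 5%. Of these, 93.0% matched this longest one. For 2525 the smallest such length matched no transcript, with its multiples not tried, and 2325 gave no length. The authors' lengths can therefore differ, and reads and intervals with them. Coordinates are GENCODE M21 on GRCm38, promoters RefSeq on GRCm38.p6.

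The 33 genes and all lists were chosen with earlier results of these data known. Named genes were the 33, close relatives of their families, and from each list those with the largest differences, the most abundant and the largest the other way; not every one is repeated. Other choices tried were pseudocounts, filters, scalings, thresholds and trends over length and GC content. Python 3.11.15, numpy 2.4.6, pandas 2.3.3 and scipy 1.17.1 were used, and the steps were tested on simulated data.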

Additional observations from a re-analysis of the deposited data

How the results depend on the processing

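The number of the 31 genes at least 2-fold lower, 11 as deposited, was 4 with a pseudocount of 5 (Flna, Myh11, Synm and Tns1), 0 at a 4-fold threshold, 5 with the length trend subtracted, 2 with length and GC content subtracted, and 6 with a trend over the longest transcript of any kind, an alternative added after the data were seen because that length includes transcripts with retained introns. The number at least 2-fold higher, 0 as deposited, was 2 at a 1.5-fold threshold. The median log2 difference of -0.52 was -0.34 with a pseudocount of 5 and -0.87 after rescaling to equal sums. The log2 ratio of the summed RPKM, -0.04, was -0.44 after rescaling to equal sums and turned to 0.02 with upper-quartile scaling, 0.01 with trimmed-mean scaling and 0.03 without Acta2 and Actg2. Under the other filters, scalings and pseudocounts the lower count lay between 9 and 13. For all genes past the filter, the counts lower and higher, 1809 and 2316, were 654 and 1309 with a pseudocount of 5 (3.96% and 7.93%), 2858 and 3000 with a pseudocount of 0.1, 179 and 333 at 4-fold (1.08% and 2.02%), 4067 and 4245 at 1.5-fold (24.6% and 25.7%), and 1710 and 780 with the length trend subtracted. The cause of these changes was not tested, apart from the stricter threshold and larger pseudocount, which lower counts by construction.

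No paired analysis was possible because each group is 1 pooled library, with no replicate to leave out. Spread between animals is unknown, and no difference here was set against it. Counting error was small for abundant genes and wide for Sgca and Myocd.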
